A study of Mus musculus with 2 samples.

Results

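The genes described here are 10 genes of the MHC class I antigen presentation pathway, chosen by name: B2m, H2-K1, H2-D1, Tap1, Tap2, Tapbp, Psmb8, Psmb9, Psmb10 and Nlrc5. All 10 have a probe that is matched to them through a RefSeq transcript, out of 20660 genes named on the arrays, and they are read by 12 probes with 30 spots. The cells were primary chondrocytes from C57BL/6J mice aged 6 days, and their mRNA was hybridised to 2 one-colour arrays, one for the culture before loading and one for the culture 24 h after it. Both groups share the strain, the age, the isolation from articular cartilage with collagenase D and a culture of 48 h in silicon chambers coated with fibronectin, and the labels name no genetic change. Loading was a cyclic stretch of the chamber by 10% at 0.5 Hz for 30 min, and the study asked which genes such a load alters in chondrocytes. Each time point has a single array, so the differences carry no replicate error and are given without tests or p-values. The control array precedes loading, so what the load did and what another 24 h in culture did cannot be told apart. How many mice were pooled for each RNA is not given in the sources used here.

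MHC class I molecules carry short peptides from the cytosol to the surface of nearly all nucleated cells, where CD8+ T cells read them. Proteasomes cut the peptides, and the immunoproteasome replaces the catalytic subunits of the standard particle by Psmb8, Psmb9 and Psmb10. The peptides are pumped into the endoplasmic reticulum by the Tap1-Tap2 transporter, tapasin (Tapbp) holds the empty class I molecule at the transporter, and the loaded complex of a heavy chain (H2-K1 or H2-D1) with beta-2-microglobulin (B2m) leaves for the surface. Interferon gamma is a classical inducer of these genes, and Nlrc5 is the transactivator that acts at class I promoters.

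All 10 genes were detected, that is, well above background before and after loading, and no spot was saturated. Their changes were small and unequal. Psmb8 rose 1.79-fold and Psmb9 fell 1.85-fold, and the other 8 genes stayed within 1.5-fold. The members past 1.5-fold were thus 1 of 10 higher and 1 of 10 lower, where 3.65% of the 14231 genes detected on both arrays were higher and 5.84% were lower by this measure. The log2 ratio, 24 h after minus before loading, was above 0 for 8 members and below 0 for Psmb9 and Nlrc5. It was above 0 for 6776 of the 14231 detected genes. The median ratio over the members was 0.37, against -0.01 over all detected genes. No member passed 2-fold, a change that 0.668% of detected genes showed upward and 1.83% downward. In a bulk culture, fewer cells of a type and less RNA per cell cannot be told apart.

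**Figure D1:**
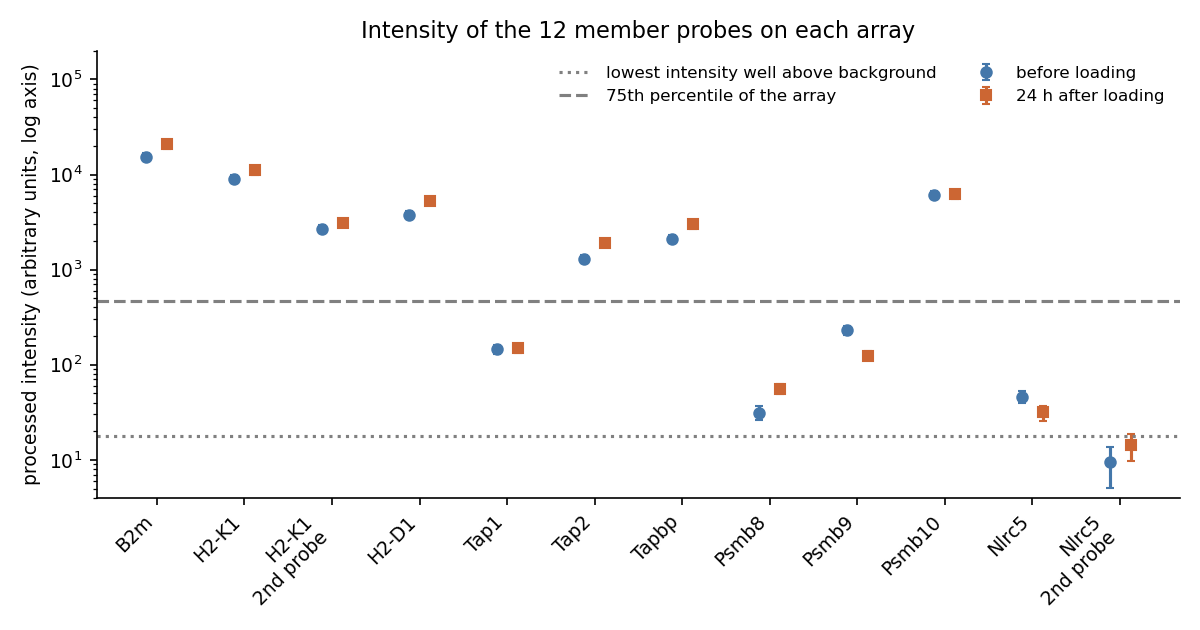
Processed intensity, on a log axis, of the 12 member probes before loading (blue circles) and 24 h after loading (orange squares), with 1 array per time point, bars for the software's error of 1 array, a dashed line at the 75th percentile and a dotted line at the lowest intensity well above background. The brightest probes of B2m, H2-K1, H2-D1, Tap2, Tapbp and Psmb8 are higher at 24 h, those of Tap1 and Psmb10 are nearly level, those of Psmb9 and Nlrc5 are lower, and heights of different probes cannot be compared with each other.

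Intensities are the scanner software's processed signals after background subtraction. They were compared on the log2 scale after setting each array to its own 75th percentile, which lay at 466.37 before loading and 466.15 at 24 h. The dimmest spot called well above background had an intensity of 17.3 on the first array and 17.8 on the second. The error given with a ratio combines the software's errors of both arrays, covers within-array error only, and had a median of 0.20 on the log2 scale over the detected genes. All 10 chondrocyte markers sought were detected on both arrays, and their summed intensity was 1.233e+06 before loading and 1.227e+06 at 24 h. Of this sum 1 Col2a1 probe gave 499543 and 474876, so it mainly reads the brightest probes and does not show that each marker was level.

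The upstream sequences of 4 members are shown because they hold the letters that the heavy chains share, the interferon-type match of B2m, and the single stretch from which Psmb9 and Tap1 are transcribed in opposite directions. They are RefSeq sequences of GRCm38.p6 up to the base before the transcript start, written 5′ to 3′ on the strand given, in lower case. Capitals mark matches on either strand to the core of an interferon-stimulated response element (GAAA, 2 bases of any kind, then GAAA) and to a loose kappa B type pattern (GGG, 5 bases of any kind, then CC), with overlapping matches joined.
H2-K1, minus strand, chr17:34000348-34000597: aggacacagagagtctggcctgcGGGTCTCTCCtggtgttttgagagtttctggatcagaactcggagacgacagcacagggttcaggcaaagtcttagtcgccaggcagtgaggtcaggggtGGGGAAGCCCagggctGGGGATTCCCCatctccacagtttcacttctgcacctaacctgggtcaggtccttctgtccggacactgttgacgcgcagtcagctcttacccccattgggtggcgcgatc
H2-D1, plus strand, chr17:35262844-35263093: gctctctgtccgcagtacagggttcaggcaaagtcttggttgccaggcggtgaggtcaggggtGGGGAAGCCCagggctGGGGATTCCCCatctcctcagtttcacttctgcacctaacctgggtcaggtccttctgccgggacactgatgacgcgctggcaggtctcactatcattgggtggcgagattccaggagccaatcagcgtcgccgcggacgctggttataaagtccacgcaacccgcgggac
B2m, plus strand, chr2:122147437-122147686: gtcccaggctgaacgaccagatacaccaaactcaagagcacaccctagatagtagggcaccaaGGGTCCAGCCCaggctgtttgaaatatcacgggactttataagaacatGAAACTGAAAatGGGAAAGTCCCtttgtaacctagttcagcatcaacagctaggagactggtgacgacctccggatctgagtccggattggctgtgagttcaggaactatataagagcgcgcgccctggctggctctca
Psmb9 to Tap1, plus strand, chr17:34187331-34187555: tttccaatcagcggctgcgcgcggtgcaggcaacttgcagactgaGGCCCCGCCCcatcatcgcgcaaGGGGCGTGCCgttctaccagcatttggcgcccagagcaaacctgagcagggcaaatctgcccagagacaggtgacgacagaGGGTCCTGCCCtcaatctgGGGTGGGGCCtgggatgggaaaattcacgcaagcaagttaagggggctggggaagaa

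B2m and the heavy chains of the class I complex were brighter at 24 h in every spot. B2m, the light chain, read 15229 before loading and 20785 at 24 h, a log2 ratio of 0.45 (error 0.20). Its 2 spots read 15625 and 14843 before loading and 20866 and 20705 at 24 h. Both spots were higher at 24 h, and the arrays did not overlap.

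H2-K1, a classical heavy chain, was read by 10 spots of its brightest probe, which ranged from 8287 to 9403 with a median of 9043 before loading and from 10026 to 11748 with a median of 11331 at 24 h. The log2 ratio was 0.30 (error 0.20), and the single spots gave 0.17 to 0.36 (SD 0.056, 10 spots of 1 array pair). All 10 spots were higher at 24 h and the ranges did not overlap, although the gene stayed within 1.5-fold. Spots of 1 array share its RNA and are not replicates of the culture. Over the 268 detected probes with 8 or more spots the median spot SD was 0.087, while the ratios of all detected genes had an SD of 0.38. How many other probes had spots without overlap was not counted. A second H2-K1 probe read 2691 and 3088, a log2 ratio of 0.20.

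H2-D1, the other classical heavy chain, read 3772 before loading and 5255 at 24 h, a log2 ratio of 0.48 with an error of 0.20. Its ratio differed from that of B2m by 0.03 and that of H2-K1 by -0.15 from B2m, each with a combined error of 0.29, so the 3 chains did not differ in ratio beyond the within-array error. The upstream stretches of both heavy chains share an identical run of 47 bases, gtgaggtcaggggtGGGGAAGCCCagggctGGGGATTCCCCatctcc, while the next longest run had 11 bases among the pairs of the 8 members with an upstream stretch, all read from their own transcript's strand. Class I heavy chains are near-identical copies in part, and the files hold no probe sequences, so how far their probes also read their relatives was not tested.

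**Figure D2:**
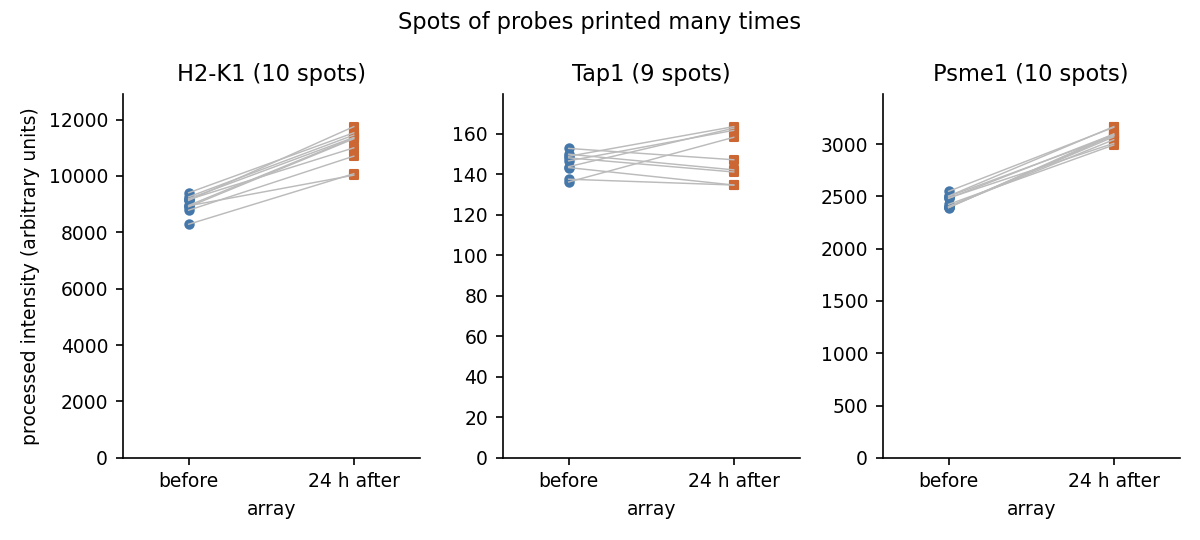
Processed intensity, on axes from 0, of each spot of the H2-K1, Tap1 and Psme1 probes before loading (circles) and 24 h after loading (squares), with a line joining the same spot position on both arrays. All 10 spots of H2-K1 and of Psme1 (a proteasome activator subunit described further on) are higher at 24 h, and the 9 Tap1 spots overlap between the arrays.

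Of the peptide transport and loading genes, Tap2 and Tapbp had ratios of 0.56 and 0.50 on the log2 scale and Tap1 one of 0.04. Tap2, one of the transporter chains, read 1291 before loading and 1906 at 24 h. Its ratio lay just inside 1.5-fold, at a fold of 1.48, and the spots around it had a median ratio of 0.29. Of the 3521 detected genes with a similar intensity, 2.67% were more than 1.5-fold higher and 7.3% higher by more than 2 within-array errors. Tapbp, tapasin, read 2121 and 2990, a log2 ratio of 0.50. Tap1, the other transporter chain, read 145 before loading and 149 at 24 h, a log2 ratio of 0.04 with an error of 0.21. Its 9 spots ranged from 136 to 153 before loading and from 135 to 163 at 24 h, with medians of 147 on both arrays. The ranges overlapped, and 4 spots were higher and 5 lower at 24 h. The Tap1 ratio was 0.52 below that of Tap2 on the log2 scale, with a combined error of 0.29, a gap of 1.78 errors.

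The 3 inducible proteasome subunits differed in direction. Psmb8, also called LMP7, read 31.5 before loading and 56.2 at 24 h, a log2 ratio of 0.84 with an error of 0.29. Psmb9, also called LMP2, read 230 and 125, a log2 ratio of -0.88 with an error of 0.21. Psmb10, also called MECL-1, read 6105 and 6188, a log2 ratio of 0.02 with an error of 0.20. The ratios of Psmb8 and Psmb9 lay 1.72 apart on the log2 scale, with a combined error of 0.36, and each rests on 1 spot.

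Psmb8 was dim. Before background subtraction the median pixel of its spot was 78 before loading and 101 at 24 h over local backgrounds of 41 and 42. Among the 2101 detected genes with a mean intensity within 2-fold of its own, 6.52% were more than 1.5-fold higher and 6.76% were higher by more than 2 within-array errors. With normexp background correction its log2 ratio was 0.37, below 1.5-fold. Psmb9 stood further above background, with median pixels of 265.5 and 162 over 44 and 43, and 9.27% of the 2817 genes of similar intensity were more than 1.5-fold lower and 14.2% lower by more than 2 errors. Its ratio was -0.60 with normexp, still past 1.5-fold. None of the detected spots around Psmb9 changed more than 2-fold.

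The standard subunits that these 3 replace stayed within 1.5-fold. Psmb5, which Psmb8 replaces, read 67108 and 68532, a log2 ratio of 0.03. Psmb6, the counterpart of Psmb9, read 51256 and 45204, a ratio of -0.18, and Psmb7, the counterpart of Psmb10, read 5336 and 4844, a ratio of -0.14. The inducible minus the standard subunit was thus 0.81 for Psmb8 (combined error 0.35), -0.70 for Psmb9 (0.29) and 0.16 for Psmb10 (0.29). The first and the second of these differences were beyond 2 within-array errors, in opposite directions.

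Psmb9 and Tap1 lie side by side on chromosome 17, and their RefSeq starts are 225 bases apart on opposite strands, in the stretch printed above. The Psmb9 ratio, from 1 spot on each array, was 0.92 below that of Tap1, with a combined error of 0.30. With normexp the ratios were -0.60 for Psmb9 and 0.03 for Tap1. Tapbp, H2-K1, Psmb9, Tap1, Psmb8, Tap2 and H2-D1 follow each other in this order on chromosome 17, so the member that rose past 1.5-fold and the one that fell past it are separated by Tap1 alone among the members. B2m is on chromosome 2, and Nlrc5 and Psmb10 are on chromosome 8.

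Nlrc5, the transactivator, read 46.4 before loading and 31.6 at 24 h, a log2 ratio of -0.55 with an error of 0.33, or 1.47-fold lower. The spot was near background, with median pixels of 83 and 74 over 39 and 43.5, and 12.2% of the 1943 genes of similar intensity were more than 1.5-fold lower and 12.3% lower by more than 2 errors. With normexp the ratio was -0.11. A second Nlrc5 probe read 9.41 before loading and 14.4 at 24 h. It was higher at 24 h but not well above background on either array, so no ratio is given for it. The value of the brighter Nlrc5 probe lay within 2 of its errors, on the other side of 0 from the heavy chains and B2m.

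**Figure D3:**
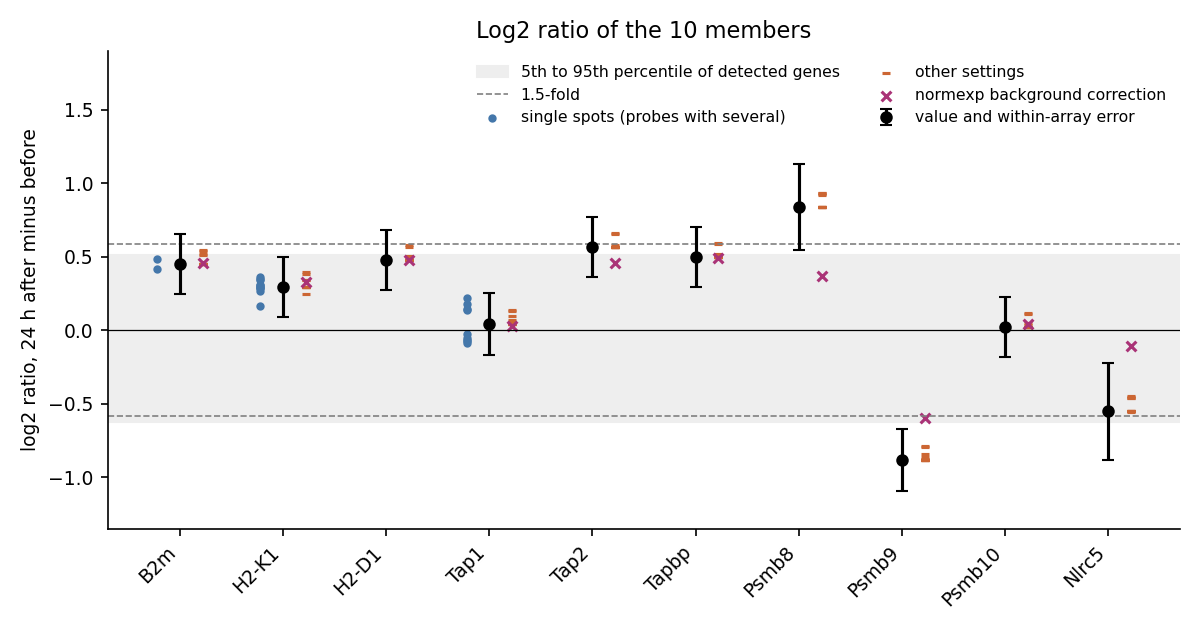
Log2 ratio of each member, 24 h after minus before loading (black points, with bars of 1 within-array error to each side, which hold no variation between cultures), its single spots where a probe has several (blue), and its values with normexp correction (crosses) and the other settings (orange dashes). Psmb8 and Psmb9 lie outside the 1.5-fold lines (dashed) and outside the grey band from the 5th to the 95th percentile of detected genes, from -0.63 to 0.51. Tap2, at 0.56, lies above this band but within the 1.5-fold lines. The normexp values of Psmb8, Psmb9 and Nlrc5 lie nearer to 0.

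Ranked by ratio, the members ran from Psmb8 through Tap2, Tapbp, H2-D1, B2m, H2-K1, Tap1 and Psmb10 to Nlrc5 and Psmb9. Of the neighbours in this order, only Psmb10 and Nlrc5 differed by more than 1 combined within-array error, and none differed by more than 2. Measured by 2 within-array errors in place of a fold, 5 members were higher (B2m, H2-D1, Psmb8, Tap2 and Tapbp), where 7.24% of detected genes were. By the same measure 1 member was lower, Psmb9, where 9.12% of detected genes were. Tap2 had a higher ratio than 95.9% of the detected genes, Tapbp than 94.6%, H2-D1 than 94.2%, B2m than 93.3% and H2-K1 than 86.3%.

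**Figure D4:**
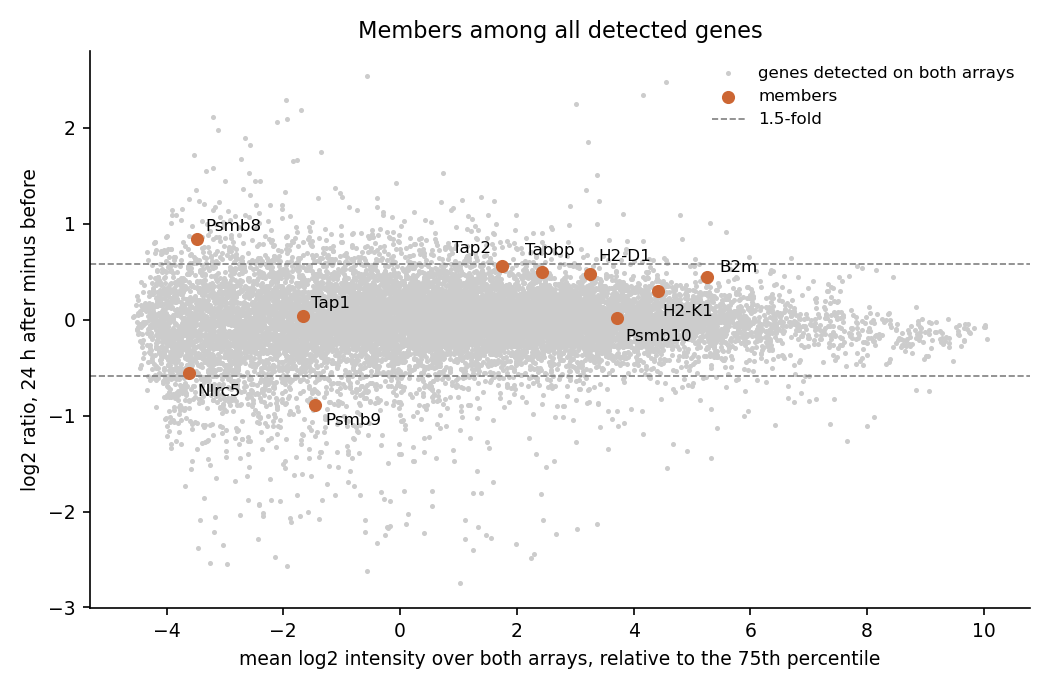
Log2 ratio against the mean log2 intensity relative to the 75th percentile for the 14231 genes detected on both arrays (grey) and the 10 members (orange), with the 1.5-fold lines. Psmb8 and Nlrc5 lie among dim genes, whose ratios spread widely, and B2m, H2-K1, H2-D1, Tapbp and Tap2 lie in the upper part of the cloud of brighter genes.

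The remaining class I heavy chains and class I-like genes had positive ratios as well. Of 24 genes on this list, 19 had a probe and 15 were detected, all 15 with a ratio above 0, and the median was 0.36. Of all 14231 detected genes, 6776 had a ratio above 0. Past 1.5-fold, 4 of the 15 were higher and 0 lower, where 3.65% of all detected genes were higher and 5.84% lower. Hfe, the haemochromatosis protein that pairs with B2m, read 1511 and 2530, a log2 ratio of 0.74. H2-M3, which presents formylated peptides, read 129 and 207, a ratio of 0.68, and Mr1, which presents vitamin metabolites to MAIT cells, read 116 and 185, a ratio of 0.67. H2-Q10, a secreted heavy chain known from liver, read 171 and 258, a ratio of 0.59, and 152 and 193 on a second probe, a ratio of 0.35. The lowest were H2-Q8 at 0.02 and H2-T24 at 0.08, both near the median of all genes. With normexp only Hfe stayed past 1.5-fold, while all 15 remained above 0. How far the probes of these heavy chains also read each other was not tested.

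The machinery around the members showed no such shift. Over 7 genes of peptide loading and quality control, such as calreticulin and calnexin, the median was -0.02 and none passed 1.5-fold. The highest was calnexin (Canx), at 21254 and 25494 with a log2 ratio of 0.26, and the lowest Tapbpl, a tapasin relative, at 717 and 599 with -0.26. Over 8 peptidases that trim class I peptides the median was 0.02 and none passed 1.5-fold, from Lnpep at 1077 and 857 with -0.33 to Erap1 at 42.5 and 53.4 with 0.33. Over 7 proteasome activator and assembly genes the median was 0.05 and none passed 1.5-fold. The lowest was Psmg1, an assembly chaperone, at 15810 and 12774 with -0.31, and the highest Psme1, a subunit of the PA28 activator, at 2452 and 3078 with 0.33. The 10 Psme1 spots ranged from 2391 to 2548 before loading and from 2991 to 3167 at 24 h, without overlap.

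Regulators and the interferon pathway lay at the middle of all genes. Of 16 regulators of class I promoters 14 were detected, with a median of -0.03. Rfxap, a subunit of the RFX complex that binds MHC promoters, was the only one past 1.5-fold, at 96.3 and 165 with a log2 ratio of 0.78, and it was at 0.55 with normexp. The brighter of 2 Rfx5 probes was not well above background at either time point, and the other was so only before loading. Over 9 interferon receptor and signalling genes the median was 0.05 and none passed 1.5-fold, from Socs3, a feedback inhibitor, at 1334 and 1141 with -0.22 to Ifngr2, a chain of the interferon gamma receptor, at 1074 and 1399 with 0.38.

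MHC class II genes, which present peptides from outside the cell in professional presenting cells, were on the other side of the middle. Of 9 genes 7 were detected, with a median of -0.29, and none passed 1.5-fold. H2-DMa, which loads class II, was lowest at 483 and 326 with a log2 ratio of -0.57, and Cd74, the invariant chain, highest at 31.8 and 38.3 with 0.27. H2-Aa and H2-Oa were detected at neither time point.

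**Figure D5:**
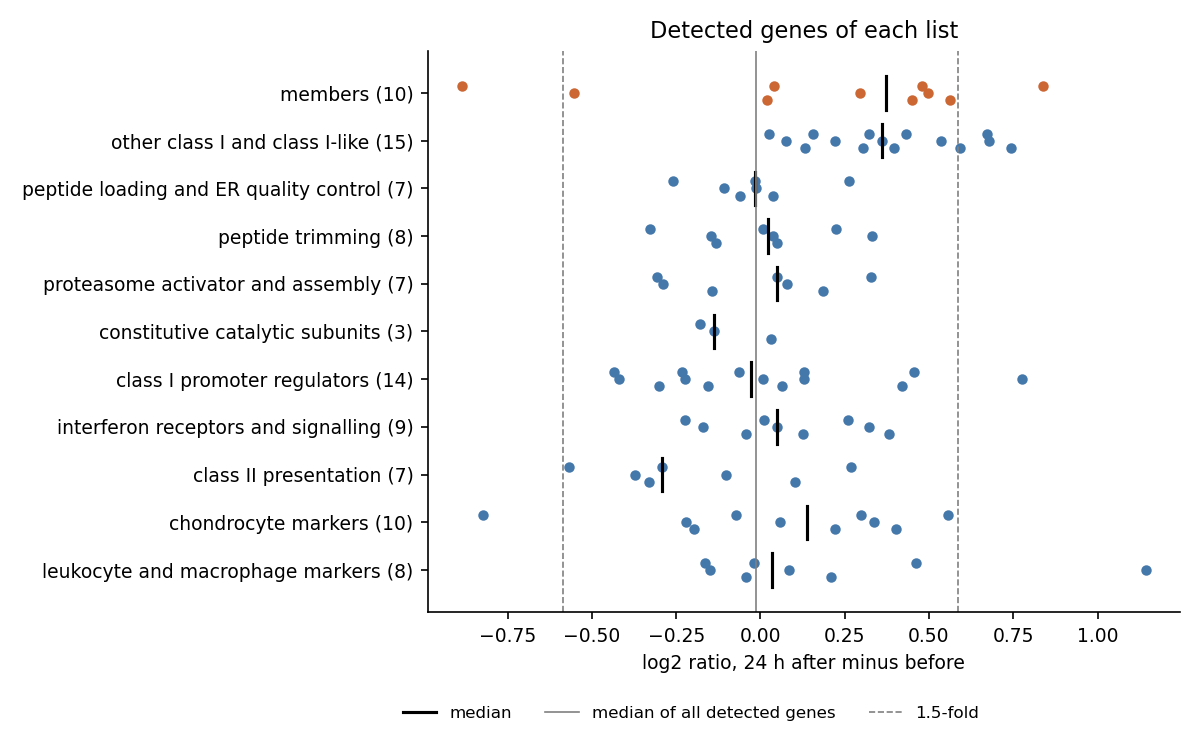
Log2 ratio, 24 h after minus before loading, of each detected gene in each list (points), with the median of the list (black bar), the median of all detected genes (grey line) and the 1.5-fold lines (dashed). Members and other class I genes have medians of 0.37 and 0.36, and the medians of the remaining pathway lists lie between -0.29 and 0.05.

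Other cell types present MHC class I strongly, and their markers were read beside these results. Of 9 leukocyte and macrophage markers with a probe 8 were detected and Aif1 was not, with a median log2 ratio of 0.03. Their summed intensity was 29911 before loading and 29014 at 24 h, but 1 Itgam probe gave 25496 and 24759 of it while the other Itgam probes read 49 and 70.4 before loading, so the sum is a reading of that probe. Ptprc (CD45) rose from 20.9 to 46.1, a ratio of 1.14, or 0.40 with normexp, and Lyz2, a lysozyme of myeloid cells, read 367 and 506, a ratio of 0.46. Both were higher by more than 2 within-array errors. None of 6 dendritic and B cell markers was well above background on both arrays. Among those above background on 1 array, Itgax (CD11c) was at least 2.01-fold higher and Cd79a at least 1.55-fold higher at 24 h, and Flt3 was at least 2.0-fold lower. Of 5 T and NK cell markers 3 were detected, with summed intensities of 8218 and 8276, of which a Cd4 probe gave 5509 and 5288 while the other Cd4 probe read 30.9 and 33.8. The second Nkg7 probe was not well above background. Of 7 endothelial markers 3 were detected, with sums of 12958 and 12557, of which 1 Kdr probe gave 12774 and 12375. The other Kdr probe was not well above background. Pecam1 read 111 and 130, a log2 ratio of 0.23, and Vwf read 73.1 and 52.4, a ratio of -0.48. Cdh5, Tek, Tie1 and Emcn were detected at neither time point. The part of these cells in the results was not tested. Among the chondrocyte markers Col11a1, a cartilage collagen chain, fell from 107657 to 60799, a ratio of -0.82, and the median was 0.14. In some areas of the slide several neighbouring spots changed together. Of the detected list genes, the probes of Col11a1, Ptprc, Tapbpl, H2-Q2, Matn1, Psme3, Ifnar1 and H2-Ob lie in such areas. No member probe does. With probes in these areas left out, all 15 detected class I heavy chains and class I-like genes were above 0, with a median of 0.40. The leukocyte and macrophage median was then -0.02.

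RefSeq promoter windows, from 250 bases before to 50 bases after a start, were at hand for 8 of the 10 members, and none for Tap2 and Nlrc5. The interferon-stimulated response element core was found in 1 of the 8, B2m, from base -139 to -130 before its start, and in 3.44% of all 32851 windows. Only exact letters of this core were counted, so whether the other members hold a variant of the element was not tested. The kappa B type pattern was found in 5 of the 8 (B2m, H2-K1, H2-D1, Psmb9 and Tap1) and in 50.8% of all windows. CCAAT was found in 6 of the 8 and in 37.4% of all windows, and TGACG, part of a cAMP response element, in 5 of the 8 and in 20.8%. Both strands were searched. Psmb8, the member that rose past 1.5-fold, held none of the 4 patterns in its window, nor did Psmb10. The windows of Psmb9, which fell past it, and Tap1 overlap on opposite strands, so that both held the same 3 patterns follows from the shared bases. The member counts include such shared sites for both genes, and likewise the kappa B type matches in the 47-base run of H2-K1 and H2-D1. A match or its absence describes only the letters of these windows.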

How the data were processed

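RNA of primary chondrocytes was labelled with Cy3 and hybridised to 2 Agilent mouse arrays on 1 slide. The authors deposited the processed intensity of each spot from Agilent Feature Extraction 10.10.1.1 (submitters' processing notes), which is background-subtracted and not normalized between arrays. Local subtraction leaves dim spots sensitive to the background chosen. The scanner in the file headers, G2505C, is not the one named in the methods. Outlier spots (255 on either array) and controls were left out, spots of a probe were averaged as log2 intensity, and each array was set to its 75th percentile. Probes were named through RefSeq transcripts, 27235 of 55678 matching, and the brightest probe stands for a gene. Detected means well above background on both arrays. A call is a change past 1.5-fold. An area is called disturbed where at least 3 spots within 100 µm changed more than 2-fold one way.

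The members and lists were chosen with earlier results of these data known. Named are all members, the 3 standard subunits, and from each list the genes past 1.5-fold or otherwise its highest and lowest. Other genes were named after their values were seen. Protein identity was not analysed here, and 2 listed genes are not reported here. The number of arrays, 1 per time point, limits the precision. Alternatives were 11 settings and 2 other call rules. The computation of calls was tested on simulated data, which hold no variation between cultures. A gene above background on 1 array has only a bound, taken from the lowest intensity above background on the other or its own value, whichever is higher. With its own value, as for Itgax, the bound is the measured ratio itself. Python 3.11.15 was used with numpy 2.4.6, pandas 2.3.3, scipy 1.17.1 and matplotlib 3.10.9, and limma 3.58.1 (R 4.3.3) for normexp with an offset of 50, loess and quantile normalization.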

Additional observations from a re-analysis of the deposited data

How the results depend on the processing

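No member's ratio changed sign under any of 11 settings, and 107 of 110 member values moved by less than their within-array error. Of these, 39 were identical by construction, since the filters, the disturbed areas and the mean over probes could not alter them. The exceptions came with normexp correction of the background, at 0.37 for Psmb8, -0.60 for Psmb9 and -0.11 for Nlrc5. The median of the members ran from 0.35 with normexp to 0.47 with median scaling. Members more than 1.5-fold higher numbered 3 with median scaling (Tap2, Tapbp and Psmb8), 2 (Tap2 and Psmb8) with spike-in scaling and 0 with normexp. Past 2-fold, 0 were higher and 0 lower, and beyond 2 within-array errors 5 were higher. Psmb9 was the only member more than 1.5-fold lower under each of the 11 settings. Over all detected genes, 520 were higher and 831 lower by 1.5-fold, against 803 and 614 after median scaling, 764 and 633 after spike-in scaling, and 272 and 429 after normexp. These scalings moved the median of all genes by at most 0.10. Signal near background limits Psmb8 and Nlrc5, and 1 spot per array limits Tap2, Tapbp, H2-D1, Psmb8, Psmb9, Psmb10 and Nlrc5.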
